A study of Mus musculus with 8 samples.

Results

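Immediate early genes are switched on within minutes of a stimulus, by kinases acting on transcription factors that are already in the cell, without new protein being made first. Calcium entry in an active neuron acts through CREB, serum response factor and MEF2 on their promoters, and their transcripts are short-lived. They are widely used as marks of recent neuronal activity, and they also respond to handling and dissociation of tissue. The 10 genes followed here were chosen by name as classical members of this class: the AP-1 subunits Fos, Fosb, Jun and Junb, the zinc finger factors Egr1 and Egr2, the nuclear receptor Nr4a1, the neuron-specific factor Npas4, the nuclear protein Ier2 and the synaptic effector Arc. All 10 were found by identifier among the 38924 genes counted in each of 8 libraries.

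The libraries hold RNA pulled down with tagged ribosomes. bacTRAP mice carry a transgene in which regulatory DNA of a selected gene, here a transporter gene, drives the tagged ribosomal protein, so the RNA comes from cells in which that driver is active and from whatever else is carried through the pull-down. All tissue was from mouse embryos. The dopamine groups, from midbrain, were Lateral (n = 1), Medial (n = 1), datL (n = 2) and datM (n = 2), and the serotonin group, from hindbrain, had n = 2. The series' design text names an Slc6a3 (dopamine transporter) and an Slc6a4 (serotonin transporter) line, whereas the description of every library, serotonin included, names the Slc6a3 line JD1640, so groups follow the titles. Per the growth protocol, which is the same for all libraries, embryos were dissected at embryonic day 15, and midbrain called day 18 was taken at day 15 and kept in vitro for 3 days. The file headers mark Lateral and Medial as E18 and place them with serotonin in lane 8, while datL and datM came from an October run without that mark. Among dopamine libraries, run and E18 mark therefore cannot be told apart. The labels spell out neither L nor M, and do not say that replicates were separate animals, so the p-values reflect spread between libraries, which may be technical. Where a comparison pools groups, that spread also holds the differences between the pooled groups.

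Totals ran from 22417739 to 33216710 counts per library. Between 13703 and 15656 genes had a count in the lane 8 libraries and between 11708 and 12509 in the October libraries. The dopamine transporter Slc6a3 had 24565 counts in Lateral, 2904 in Medial, 2937 and 6004 in datL, and 868 and 4231 in datM, against 20 and 5 in serotonin. Slc6a4 had 175 counts in Lateral, 88 in Medial and 0 in the datL and datM libraries, against 35240 and 31341 in serotonin, so both transporters followed the titles. A sum of 7 dopamine neuron genes did not in every library. In CPM (a gene's counts scaled to a common library total) it was 2068 in Lateral and 1509 in Medial. It was 388 and 858 in datL and 1834 and 1244 in datM, against 1262 and 1075 in serotonin. For 5 serotonin neuron genes the sum was 235 in Lateral, 131 in Medial, 422 and 71.0 in datL, and 37.0 and 11.8 in datM. In serotonin it was 5033 and 4201. The biological coefficient of variation in a fit of all 5 groups was 1.20, a wide spread between libraries of the same group.

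RefSeq promoter sequences (GRCm38.p6) were matched for 7 of the 10 genes. They are shown because these genes carry similar short elements in their promoters and were counted in different sets of libraries. Each window holds 30 bases, 5′ to 3′ on the gene's strand, and capitals mark TGACG or its reverse complement CGTCA, the core of the site that CREB binds, or for Jun the variant TGACATCA, which AP-1 and ATF proteins bind in its own promoter.
Fos: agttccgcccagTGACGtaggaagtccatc
Fosb: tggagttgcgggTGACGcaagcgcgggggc
Jun: aagcctcggggTGACATCAtgggctatttt
Junb: gcttcctgacagTGACGcgagccgcctcct
Npas4: tctcccgttcgaCGTCAcgggaTGACGtcg
Nr4a1: ccgggccgtgtgCGTCAgtggcgcccccgc

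The windows lie at chr12:85473812-85473841 (plus strand) for Fos, chr7:19310088-19310117 (minus) for Fosb, chr4:95052249-95052278 (minus) for Jun, chr8:84978837-84978866 (minus) for Junb, chr19:4990133-4990162 (minus) for Npas4 and chr15:101266765-101266794 (plus) for Nr4a1. The first capital stands 66, 60, 45, 106, 179 and 69 bases before the annotated start in that order. Searched on both strands of 300-base promoters, TGACG was present in 20.8% of all 32851 promoters in the table, and TGACATCA in 3.62%. Of the 7 matched genes 6 are shown. Egr2, at 0 counts in every library, is the other: its promoter windows also hold TGACG, and the CArG box that serum response factor binds, which 1.63% of all promoters hold. A match describes letters only, and binding was not measured.

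Jun was the member counted in every library, 7 others were counted in some libraries and at 0 in the rest, and Fosb and Egr2 were at 0 throughout. Of the 10 genes, 7 had a count in Lateral, 4 in Medial, 1 and 2 in the datL libraries, 4 and 3 in the datM libraries, and 8 and 4 in the serotonin libraries. Their summed level was 35.3 CPM in Lateral, 40.4 in Medial, 28.6 and 4.58 in datL, 27.2 and 6.86 in datM, and 16.6 and 23.2 in serotonin. Without Jun the sum was 23.8 CPM in Lateral, 14.0 in Medial, 0 and 0.0381 in datL, 2.09 and 2.45 in datM, and 10.8 and 13.1 in serotonin. The sum without Jun was thus higher in each of the 4 lane 8 libraries than in each of the 4 October libraries. Different genes made up that sum. Nr4a1 gave 13.4 CPM of it in Medial and 8.92 in serotonin replicate 2, while Egr1 gave 9.75 and Fos 7.41 in Lateral. Ier2 had 0 counts in Lateral and Medial, but 50 and 20 in datM. With Jun the sums of the 2 runs overlapped. The share of all genes with such a split was not computed, and every lane 8 library also had more genes with a count. A count of 0 in a library allows up to 3 counts, or 0.0903 to 0.134 CPM, and these floors and the 95% intervals below cover counting error only.

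**Figure D1:**
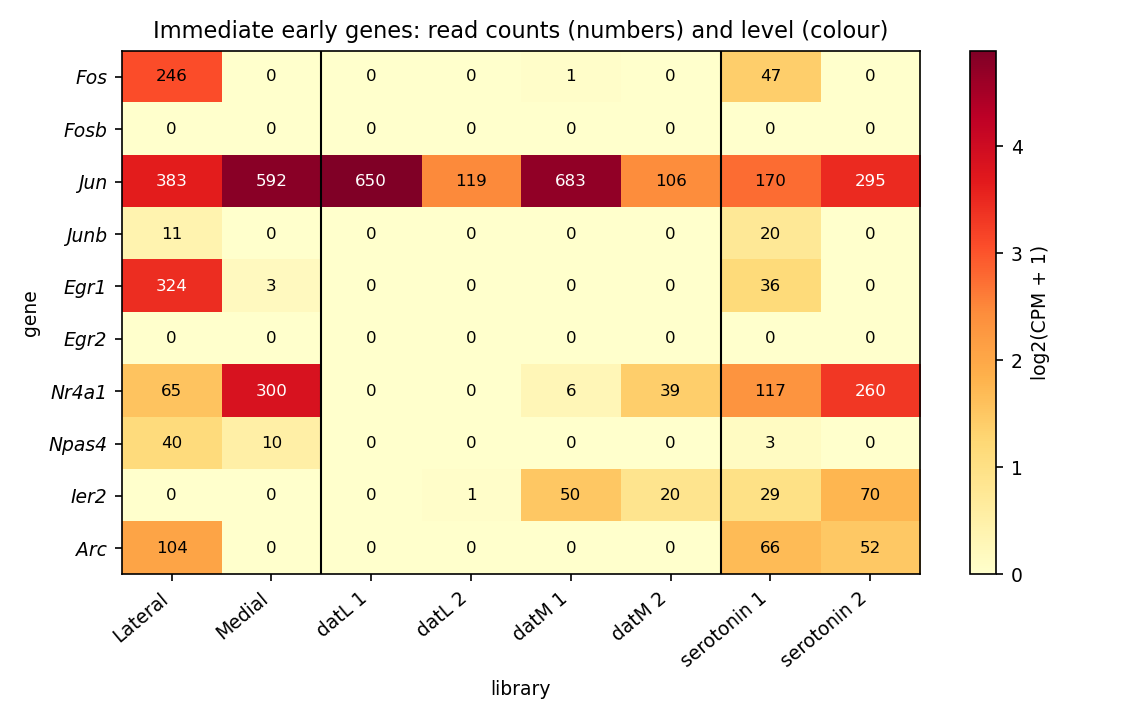
Read counts (numbers) and level as log2(CPM + 1) (colour) of the 10 genes (rows) in 8 libraries (columns, dopamine groups left of serotonin; black lines separate Lateral and Medial, datL and datM, and serotonin). Jun is filled in every column, Fosb and Egr2 are 0 in every column, and Junb, Egr1, Npas4 and Arc are 0 in the 4 datL and datM columns.

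Among the AP-1 subunits, Jun (ENSMUSG00000052684.3, mm10 chromosome 4, 95049034 to 95052222, a gene of 1 exon) stood at 11.5 CPM in Lateral, 26.4 in Medial, 28.6 and 4.54 in datL, 25.1 and 4.41 in datM, and 5.77 and 10.1 in serotonin. Jun pairs with Fos proteins or with itself to bind DNA. High and low values occurred within both datL and datM: replicate 1 of each was high and replicate 2 low, and the high pair lay near Medial. Per length, its level was 1.38 to 8.98 RPKM, above 32.7% to 62.9% of the genes detected in the same library. The antisense gene Junos overlaps Jun but had 0 counts in all libraries.

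Fos, the partner of Jun (ENSMUSG00000021250.7, chromosome 12, 85473890 to 85477273), had 246 counts in Lateral, 0 in Medial, 0 in both datL libraries, 1 and 0 in datM, and 47 and 0 in serotonin. Its level in Lateral was 7.41 CPM (95% Poisson interval 6.51 to 8.39), against 1.59 CPM in serotonin replicate 1. Per length the Lateral value was 3.15 RPKM, above 49.2% of genes detected there. Lateral and 1 serotonin library thus carried nearly all Fos counts, and the other serotonin library had none.

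Junb, a Jun relative that often restrains it (ENSMUSG00000052837.5, chromosome 8, 84976909 to 84978748), had 11 counts in Lateral and 20 in serotonin replicate 1, and 0 in the other 6 libraries. These are the same libraries that held most Fos counts. Fosb, a close relative of Fos (ENSMUSG00000003545.2, chromosome 7, 19302721 to 19310045), had 0 counts in all 8 libraries. At 0 in all libraries were 51.9% of all genes.

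Egr1, a zinc finger factor induced with Fos (ENSMUSG00000038418.7, chromosome 18, 34859823 to 34864984), had 324 counts in Lateral, 3 in Medial, 0 in the 4 datL and datM libraries, and 36 and 0 in serotonin. It reached 9.75 CPM (95% Poisson interval 8.72 to 10.9) in Lateral and 1.22 CPM in serotonin replicate 1. The 3 counts in Medial equal 0.926% of the Lateral count in the same lane, and for scale, the Slc6a4 counts of Lateral and Medial were 0.263% and 0.132% of the serotonin libraries' sum, and those of Tph2, the serotonin-synthesis enzyme, 0.373% and 0.622%. Whether reads passed between libraries of the lane was not tested. Egr2 (ENSMUSG00000037868.9, chromosome 10, 67535475 to 67542188), known for its part in hindbrain patterning and myelination, had 0 counts in all libraries.

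Arc, whose protein acts at synapses and in the trafficking of glutamate receptors (ENSMUSG00000022602.8, chromosome 15, 74669083 to 74672570), had 104 counts in Lateral, 0 in Medial and in the 4 datL and datM libraries, and 66 and 52 in serotonin. Its level was 3.13 CPM in Lateral and 2.24 and 1.78 CPM in serotonin. Unlike Fos, Junb and Egr1, Arc was counted in both serotonin libraries.

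Npas4, a factor induced by calcium entry in neurons (ENSMUSG00000045903.8, chromosome 19, 4984355 to 4989971), had 40 counts in Lateral, 10 in Medial, 0 in the datL and datM libraries, and 3 and 0 in serotonin. That is 1.20 CPM in Lateral, 0.446 in Medial and 0.102 in serotonin replicate 1. The Medial counts equal 25.0% of those in Lateral.

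Nr4a1, an orphan nuclear receptor (ENSMUSG00000023034.6, chromosome 15, 101266846 to 101274792), followed another order. It stood at 1.96 CPM in Lateral, 13.4 in Medial, 0 in both datL libraries, 0.220 and 1.62 in datM, and 3.97 and 8.92 in serotonin. Medial was the highest library for Nr4a1, where Fos, Junb and Arc had 0 counts. Per length, Nr4a1 reached 5.41 RPKM in Medial and 3.60 RPKM in serotonin replicate 2.

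Ier2, an early-induced nuclear protein (ENSMUSG00000053560.4, chromosome 8, 84661331 to 84662852), was not detected in Lateral, where Fos was highest. It had 0 counts in Lateral and Medial, 0 and 1 in datL, 50 and 20 in datM, and 29 and 70 in serotonin. In CPM this was 1.83 and 0.832 in datM, and 0.984 and 2.40 in serotonin. Of 10076 genes with a count in both datM and both serotonin libraries, 29 (0.288%) were at 0 in Lateral and Medial, and Ier2 was among them. This set follows the pattern of Ier2 itself and was not matched for level, so the share is a description and no test.

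**Figure D2:**
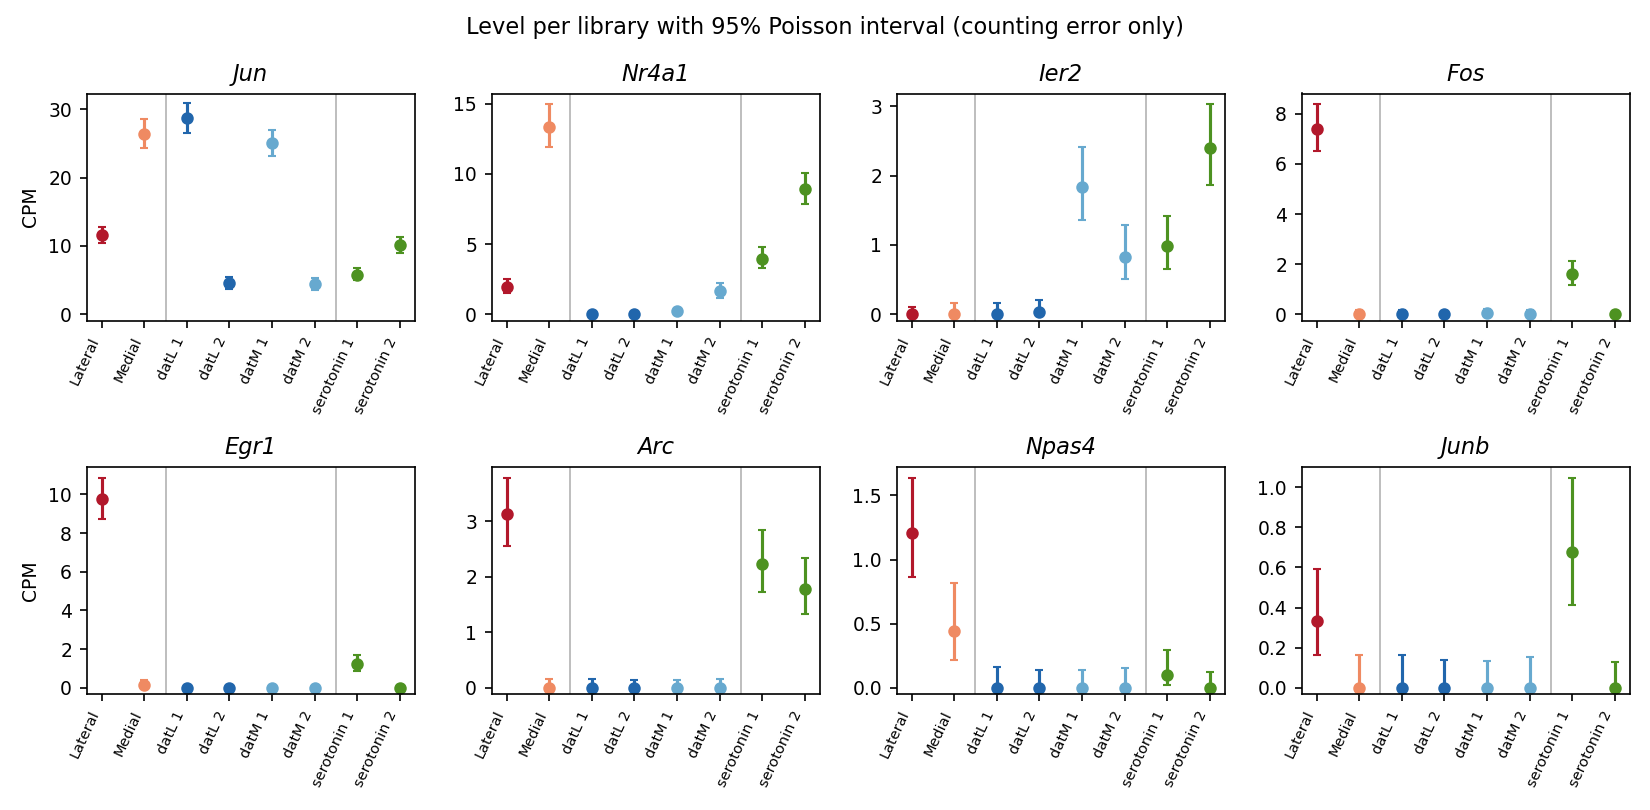
CPM of the 8 genes with any count (1 panel a gene, each with its own linear axis) in every library; bars are 95% Poisson intervals of the count. Jun splits within datL and datM, Fos, Egr1 and Junb stand out in Lateral and serotonin 1, Nr4a1 is highest in Medial at 13.4 CPM, and Ier2 is present in datM and serotonin.

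Lateral was set against Medial, 1 library each, so these ratios have no replicate check and no test. Fos was at least 55.3-fold higher in Lateral, Arc at least 23.4-fold higher and Junb at least 2.47-fold higher, with a floor of 3 counts in Medial. Egr1 had a Lateral to Medial ratio of 72.9 (95% counting interval 24.7 to 355) and Npas4 of 2.70 (1.33 to 6.05). Jun and Nr4a1 ran the other way, with ratios of 0.437 (0.383 to 0.497) and 0.146 (0.110 to 0.192). Fosb, Egr2 and Ier2 had no count in either library. The serotonin replicates, of a single group, also differed: Fos was at least 15.5-fold and Egr1 at least 11.9-fold higher in replicate 1, while Nr4a1 had a ratio of 0.445 (0.355 to 0.556) and Arc of 1.26 (0.860 to 1.84).

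Dopamine libraries were compared with serotonin libraries, the neuron type contrast of the series. No member passed the threshold of adjusted p under 0.05 in edgeR's quasi-likelihood test, where 0% of 13806 genes were called. Of the 7 members abundant enough to test, 0 had an unadjusted p under 0.05, against 4.69% of all genes. Jun averaged 16.8 ± 11.2 CPM in dopamine libraries (SD, n = 6), against 7.94 ± 3.08 CPM in serotonin (SD, n = 2), a log2 fold change of 1.20 (SE 1.51). Nr4a1 averaged 2.86 ± 5.22 CPM in dopamine libraries, against 6.44 ± 3.50 CPM in serotonin (log2 fold change -1.20, SE 2.50, and -2.97 without Medial). Fos averaged 1.24 ± 3.02 CPM in dopamine libraries, against 0.797 ± 1.13 CPM in serotonin (log2 fold change 0.71, SE 3.31), a sign that turned without serotonin replicate 2 (-0.33). The log2 fold change was 1.49 for Egr1 (SE 3.54) and 2.36 for Npas4 (SE 2.74), and -1.72 for Ier2 (SE 2.29) and -1.87 for Arc (SE 2.63). Without serotonin replicate 1, where the remaining serotonin library held 0 counts of both, the fitted values were 8.43 for Egr1 and 5.83 for Npas4, and without serotonin replicate 2 they were 0.46 and 1.38. Without Lateral, Arc was at 0 in all dopamine libraries and its fitted value was -8.66 (edgeR unadjusted p = 0.00138, adjusted p = 0.126). In limma-voom the signs of Fos (-1.29) and Egr1 (-0.83) turned. With all 5 groups in the edgeR fit, Fos stood at -4.14, Egr1 at -3.07, Ier2 at -5.79 and Arc at -6.36. limma-voom called 0 members here and in each comparison below. DESeq2 called 0 as well, but it gave no adjusted p for Fos, Arc, Nr4a1, Egr1 and Npas4 here, for Ier2 and Npas4 in both comparisons of Lateral and Medial, for Ier2, Junb, Arc and Npas4 between datL and datM, or for 6 of 8 across the 5 groups. No tested member separated all dopamine from both serotonin libraries, where 3.06% of genes did so upward and 8.59% downward.

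Within lane 8, Lateral and Medial were compared with serotonin. Again 0 of 7 tested members passed in edgeR, where 0.0224% of 13400 genes did. Ier2 had 0 counts in Lateral and Medial, at least 31.3-fold lower than the 99 counts in serotonin taking 3 counts over both libraries as the floor (edgeR unadjusted p = 0.0190, adjusted p = 0.287). At that unadjusted level 13.8% of all genes were called. The bound was 12.6-fold without Lateral, 18.7-fold without Medial and 18.2-fold without serotonin replicate 2. Jun and Npas4 were higher in Lateral and Medial than in both serotonin libraries, as were 25% of all genes, and Ier2 was lower, as were 24.6%. The log2 fold change was 1.15 for Jun (SE 0.95, adjusted p = 0.674 by edgeR) and 3.85 for Npas4 (SE 2.14, adjusted p = 0.507 by edgeR). Fos (2.17, SE 3.17) and Egr1 (2.97, SE 2.85) took their positive log2 fold changes from Lateral: without it they were -7.48 and -2.28. Arc (-0.38, SE 2.40) and Nr4a1 (0.13, SE 1.39) lay nearer 0, and without Medial they were 0.63 and -1.73. Here neuron type and the E18 mark cannot be told apart.

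Lateral and Medial were also compared with datL and datM. Junb, Egr1, Arc and Npas4 were at 0 in all 4 datL and datM libraries. Among 15324 genes with at least 10 counts over lane 8, 1806 (11.8%) were at 0 in those 4 libraries. That set held 8 members, of which 4 were at 0 there. It was not matched for level, so the share is a description and no test. Over the groups, Egr1 was at least 196-fold, Arc at least 62.4-fold, Npas4 at least 30.0-fold and Junb at least 6.60-fold higher in Lateral and Medial. Without Lateral, Egr1, Arc and Junb allowed no bound and that of Npas4 was 14.9-fold. Without Medial the bounds were 326-fold for Egr1, 105-fold for Arc and 11.1-fold for Junb. The folds of Egr1, Arc and Junb thus rest on Lateral. Fos, with 246 counts in Lateral and Medial and 1 in datL and datM, had a ratio of 443 (95% counting interval 78.8 to 17569), and all 246 came from Lateral. Resting on 1 count, that ratio was 742 without Medial, 327 to 343 without a datL library and 337 without datM replicate 2, and without datM replicate 1, which held the count, Fos was at least 108-fold higher.

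In that comparison 0 of 4 tested members passed in edgeR, where 0% of 12818 genes did. Npas4 had 0.825 ± 0.536 CPM in Lateral and Medial (SD, n = 2) and 0 in datL and datM (edgeR unadjusted p = 0.00104, adjusted p = 0.469). Ier2 had 0 counts in Lateral and Medial and 71 in datL and datM, at least 13.1-fold lower (edgeR unadjusted p = 0.0289, adjusted p = 0.781). That bound was 5.30-fold without Lateral, 7.85-fold without Medial and 5.34-fold without datM replicate 1. Unadjusted p under 0.05 was found for 4.48% of genes. Nr4a1 and Npas4 were higher in both Lateral and Medial than in every datL and datM library, as were 12.5% of tested genes. So was Egr1. edgeR's filter left out Egr1, Fos, Arc and Junb, which had 3 counts or fewer in each dopamine library but Lateral. Without the filter, edgeR gave Fos an unadjusted p of 0.0393, Arc 0.0173, Egr1 0.0169 and Npas4 0.0164. These were 4 of 8 members, beside 1599 of 17771 genes. Their adjusted p was 0.495 for Fos and 0.383 for each of the others. In the same edgeR fit the unadjusted p of Ier2 was 0.0824. Nearly all dopamine counts of Fos, Arc and Egr1 were in Lateral, so their p-values rest on that library and are not separate results. Downward, 2.77% of genes were separate, with no tested member among them. Jun was 19.0 ± 10.5 CPM in Lateral and Medial and 15.7 ± 13.0 CPM in datL and datM (log2 fold change 0.05, SE 1.81), and its sign turned without Medial (-0.54), datL replicate 2 (-0.27) or datM replicate 2 (-0.28). Nr4a1 had a fitted log2 fold change of 3.86 (SE 2.75), which was 2.04 without Medial and 6.36 without datM replicate 2.

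For datL against datM, 8 members entered the test, of which Junb, Egr1, Arc and Npas4 were at 0 in all 4 libraries. In edgeR 0 of the 8 passed, as did 0% of 15177 genes, and 0 of the 8 had an unadjusted p under 0.05, against 6.92% of genes. Nr4a1 had 0 counts in datL and 45 in datM, at least 14.3-fold lower in datL (edgeR adjusted p = 0.597). That bound ran from 3.59-fold without datM replicate 2 to 26.4-fold without datM replicate 1, and was 7.67-fold and 6.64-fold without datL replicate 1 and 2. Ier2 had 1 count in datL and 70 in datM, a ratio of 0.0150 (95% counting interval 0.000374 to 0.0862, edgeR adjusted p = 0.597). This rests on the 1 count in datL replicate 2: without that library Ier2 was at least 10.3-fold lower in datL, and the ratio was 0.0280 without datL replicate 1, 0.0246 without datM replicate 1 and 0.0111 without datM replicate 2. Both lay below datM in each datL library, as did 13.2% of genes, whereas 11.3% lay above. Jun was 16.6 ± 17.0 CPM in datL and 14.7 ± 14.6 CPM in datM (log2 fold change 0.26, SE 1.83), and its sign turned without datL replicate 1 (-1.65) or datM replicate 2 (-0.56).

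**Figure D3:**
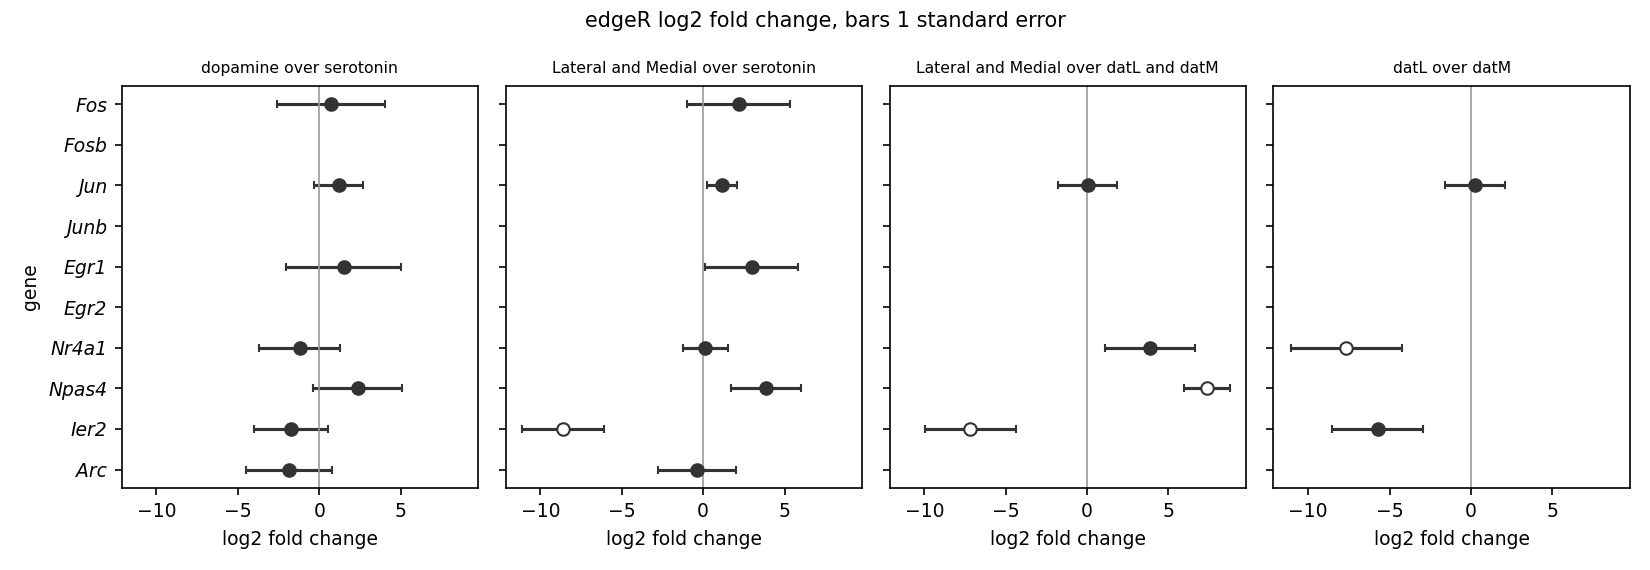
edgeR log2 fold change (horizontal axis) of each tested gene (vertical axis) in 4 comparisons. Bars are 1 standard error, derived from the fold change and the F value of its test. Open points are genes at 0 in a whole group, whose fitted value depends on the prior count. Genes that were not tested, or that had no more than 3 counts in either group, such as Fos for datL over datM, have no point. None of the 10 genes passed the adjusted threshold in any panel.

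Across all 5 groups at once, 0 of 8 tested members passed in edgeR, where 0.00659% of genes (1 gene, Tph2) did, and 0 had an unadjusted p under 0.05, against 2.69% of genes. Ordered by mean CPM, Jun ran Medial, datL, datM, Lateral, serotonin, and the values of datL and of datM each ran from below those of Lateral and serotonin to above them. Fos and Egr1 had Lateral first and serotonin second, and Ier2 had serotonin first and datM second. The 2 serotonin values of Ier2 and the 2 datM values overlapped.

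Other genes of the early response pathway were followed as 5 lists. Of 16 other early transcription factors 7 had a count in every library, of 16 feedback regulators 11, of 13 activity-regulated effectors 7, of 22 upstream regulators 16 and of 10 heat shock and stress genes 7, while of the 10 members 1 did. Upstream regulators summed to 1432 CPM in Lateral, 1584 in Medial, 1078 and 823 in datL, 1294 and 970 in datM, and 1225 and 1180 in serotonin. In edgeR 0 genes of these 5 lists passed in any comparison, in either direction. Between dopamine and serotonin, some tested genes had an unadjusted p under 0.05 in edgeR, beside 4.69% of all 13806 genes. List by list, they were 2 of 10, 1 of 15, 1 of 10, 2 of 22 and 2 of 9. There, 9 of 10 tested early transcription factors and 12 of 15 feedback regulators had positive log2 fold changes, as did 8137 of all 13806 genes tested, with medians of 0.94 and 0.72, beside 0.26 over all genes. Within lane 8 these counts were 7 of 10 and 9 of 15 (medians 0.95 and 0.18, beside 0.03 over all genes). For Lateral and Medial against datL and datM they were 4 of 9 and 3 of 15 (medians -0.17 and -0.57, beside -0.11 over all genes). Of effectors, upstream regulators and heat shock genes, 6 of 10, 15 of 22 and 7 of 9 were positive between dopamine and serotonin. Within lane 8 these were 5 of 10, 12 of 22 and 6 of 9. Against datL and datM, Lateral and Medial had 4 of 9, 15 of 22 and 4 of 9.

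Among the most abundant genes of each list, Nr4a2, a nuclear receptor needed by dopamine neurons as well as an early gene, averaged 229 ± 162 CPM in dopamine libraries (SD, n = 6), against 8.06 ± 3.24 CPM in serotonin (SD, n = 2; edgeR adjusted p = 0.328). Klf6 averaged 153 ± 98.5 CPM in dopamine libraries, against 70.8 ± 15.9 CPM in serotonin. Myc averaged 67.5 ± 39.1 CPM in dopamine libraries, against 70.6 ± 25.0 CPM in serotonin. Btg2, an antiproliferative early gene, averaged 173 ± 113 CPM in dopamine libraries, against 40.1 ± 0.520 CPM in serotonin (edgeR adjusted p = 0.879). Btg1, its relative, averaged 64.6 ± 20.3 CPM in dopamine libraries, against 51.1 ± 11.2 CPM in serotonin. Nfkbia, an inhibitor of NF-kappa-B, averaged 60.0 ± 29.5 CPM in dopamine libraries, against 26.3 ± 0.670 CPM in serotonin. None of these 6 genes passed the adjusted threshold.

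Among effectors, Syt4, a synaptotagmin, averaged 311 ± 170 CPM in dopamine libraries, against 222 ± 17.8 CPM in serotonin. Plk2, a kinase induced by activity, averaged 192 ± 73.2 CPM in dopamine libraries, against 164 ± 48.7 CPM in serotonin. Rgs2, a regulator of G protein signalling, averaged 94.1 ± 36.3 CPM in dopamine libraries, against 135 ± 14.1 CPM in serotonin. None of the 3 passed the adjusted threshold.

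Mapk3, the ERK1 kinase upstream of the early genes, averaged 143 ± 50.4 CPM in dopamine libraries, against 373 ± 20.2 CPM in serotonin (edgeR adjusted p = 0.937). Camk2b, a calcium-dependent kinase, averaged 180 ± 126 CPM in dopamine libraries, against 116 ± 19.7 CPM in serotonin. Among chaperones, Hspa8 averaged 2926 ± 622 CPM in dopamine libraries, against 1597 ± 203 CPM in serotonin (edgeR adjusted p = 0.938). Hsp90aa1 averaged 1045 ± 225 CPM in dopamine libraries, against 597 ± 93.9 CPM in serotonin, and Hsph1 259 ± 120 CPM in dopamine libraries, against 141 ± 3.14 CPM in serotonin. None of these kinases and chaperones passed the adjusted threshold.

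**Figure D4:**
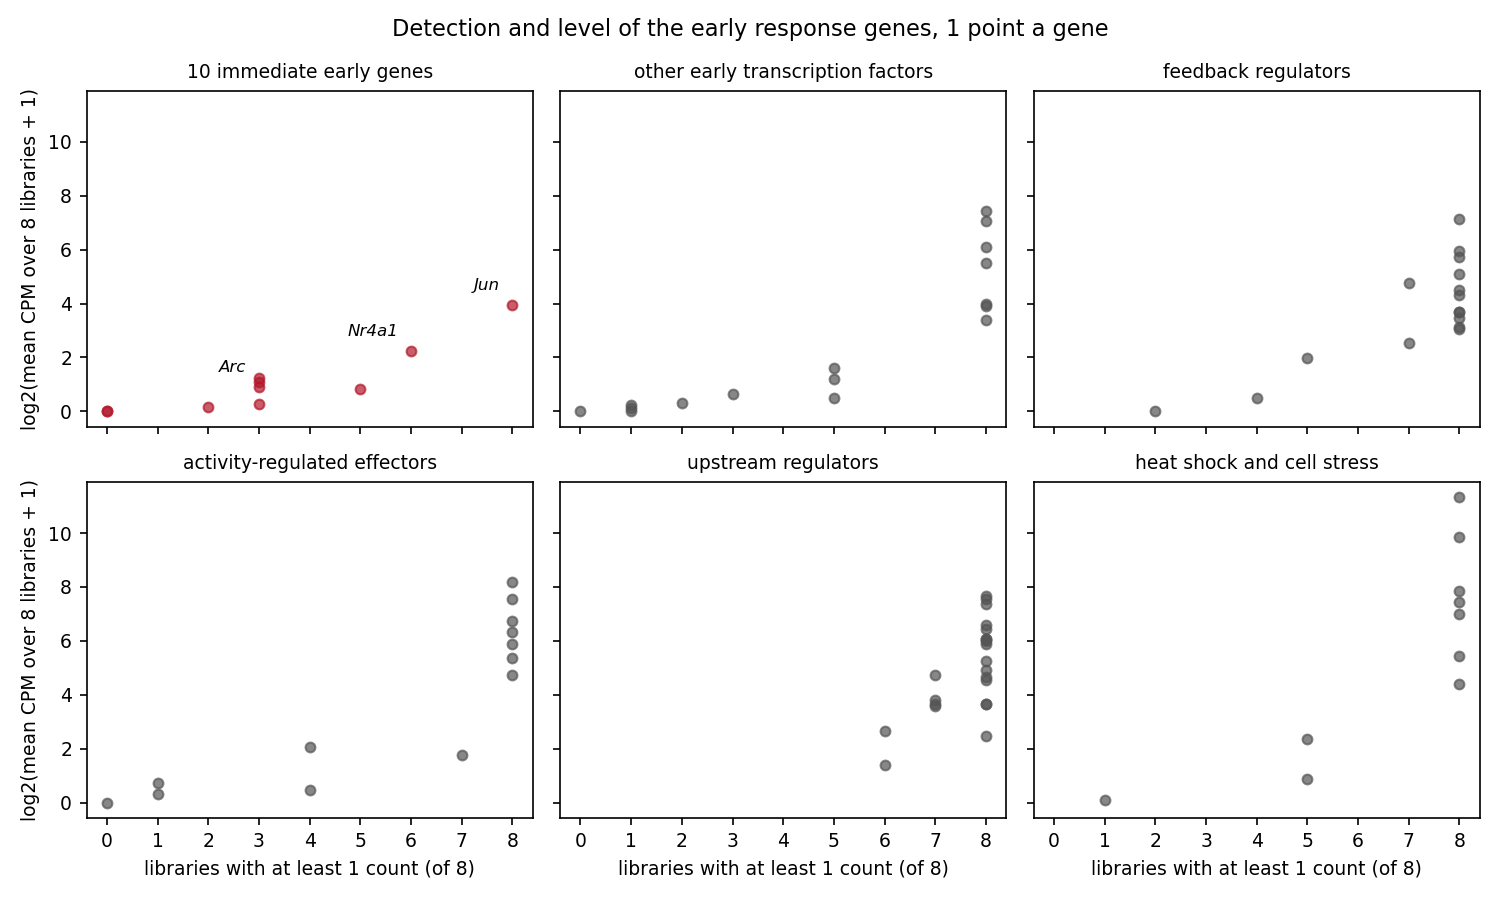
Number of libraries with at least 1 count (horizontal axis, of 8) against level as log2 of the mean CPM over 8 libraries plus 1 (vertical axis), 1 point a gene, for the 10 immediate early genes and 5 related lists. Only Jun of the 10 sits at 8 libraries, while 16 of 22 upstream regulators do.

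Markers of other cells were followed beside the members. Of 8 microglial markers, Csf1r, Trem2 and P2ry12 were at 0 in all libraries, and the list summed to 7.68 CPM in Lateral, 0.268 in Medial, 0 and 6.49 in datL, 0.587 and 0 in datM, and 0 in both serotonin libraries. Lateral, where Fos, Egr1 and Arc were highest, held 80 counts of Cx3cr1, 144 of C1qb, 12 of C1qc and 19 of Tyrobp. The serotonin libraries, which also held Arc, had 0 counts of all 8. Endothelial markers summed to 20.4 CPM in Lateral, 60.8 in Medial, 66.4 and 64.7 in datL, 17.7 and 94.1 in datM, and 9.26 and 12.2 in serotonin. Stroma and mural markers summed to 25.4 CPM in Lateral, 110 in Medial, 8.90 and 7.44 in datL, 87.7 and 43.5 in datM, and 5.67 and 37.3 in serotonin. Radial glia and astrocyte markers summed to 1811 CPM in Lateral, 2775 in Medial, 3288 and 1731 in datL, and 3540 and 2321 in datM, against 610 and 765 in serotonin. Between dopamine and serotonin libraries 7 of 7 had positive log2 fold changes, 4 with an unadjusted p under 0.05, and 0 passed the adjusted threshold in edgeR. Over all 13806 genes tested, 8137 were positive and 4.69% had an unadjusted p under 0.05. Of red blood cell genes 5 of 5 were positive, 4 of them under 0.05. Positive too were 6 of 7 endothelial, 2 of 4 tested stroma and mural and 2 of 2 tested microglial markers, 0 of them under 0.05. Red blood cell genes summed to 102 CPM in Lateral, 237 in Medial, 583 and 202 in datL, and 606 and 243 in datM, against 26.1 and 40.7 in serotonin. The radial glia, red blood cell and stroma and mural sums were higher in replicate 1 than in replicate 2 of datL and of datM. They were also higher in Medial than in Lateral, and Jun had the same order. The sum of upstream regulators did too, while the endothelial and microglial sums did not. The share of all genes with this order was not computed. The part of these cells in the members' values was not tested. In bulk samples, fewer cells with a transcript and less of it per cell cannot be told apart.

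**Figure D5:**
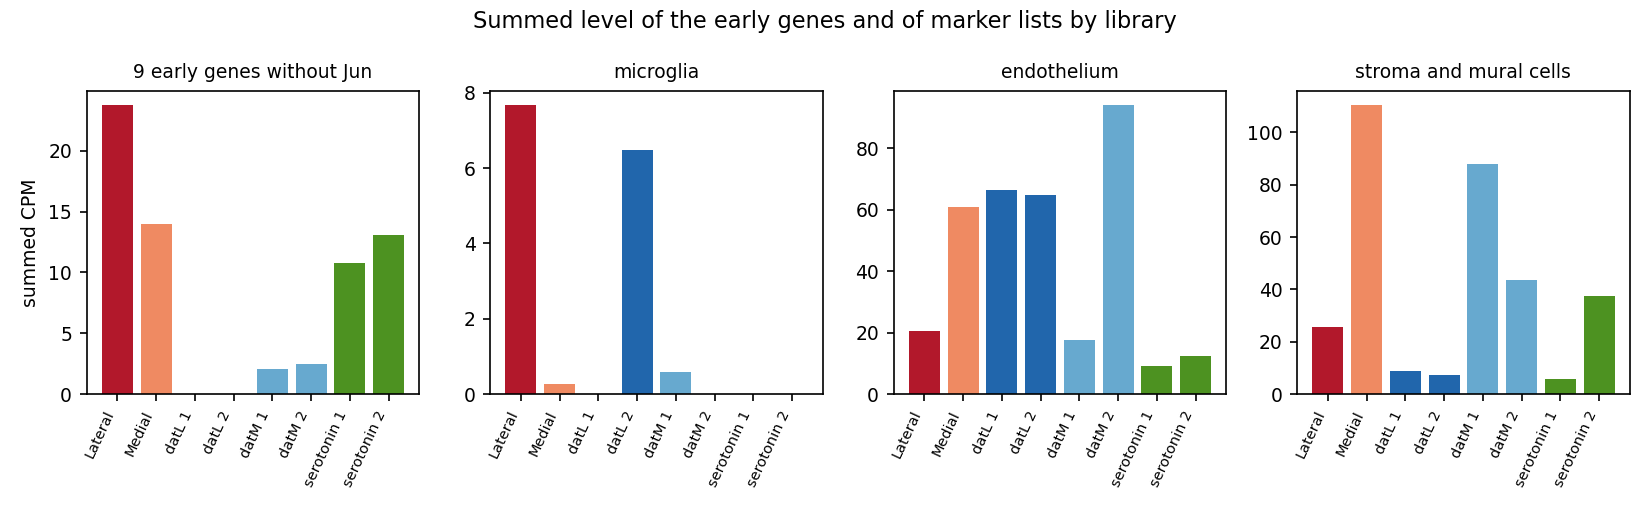
Summed CPM (vertical axes, each from 0) of the 9 early genes without Jun and of 3 marker lists in each library (horizontal axis). The early genes reach 23.8 CPM in Lateral and 0 in datL 1, and microglial markers are at 0 in both serotonin libraries.

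Genes whose log2(CPM + 1) profile over the 8 libraries was most like that of Fos were Tceal5 (Pearson's r 0.957), Impact (0.932), Hps3 (0.855), Stat2 (0.822) and Foxk1 (0.817), among 10387 genes with a mean of at least 5 CPM. For the mean of the members' centred profiles they were Gtpbp10 (0.954), Tctn3 (0.950), Pick1 (0.947), Dag1 (0.935) and B3galt4 (0.932). All 10 were highest in Lateral. For Fos, with 8 libraries and 1 dominant value, this describes a shared high value in Lateral. The members' mean centred profile was graded. It was 0.725 in Lateral, 0.127 in Medial and 0.311 and 0.196 in serotonin, and negative in each datL and datM library. The second set of genes thus also follows the split between lane 8 and October.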

How the data were processed

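The authors deposited raw read counts per gene for 8 libraries. The submitters' processing notes name STAR and the mm10 build. Per the file headers, featureCounts 1.4.3-p1 made the counts with its strand option off. Counts were used as deposited; CPM divides by the library total, and RPKM also by the gene length in the deposited tables. Tests were two-sided quasi-likelihood tests of edgeR 4.0.16 (R 4.3.3) after its default filter and TMM scaling, with Benjamini-Hochberg adjustment over all genes tested. The fit for datL against datM used all 5 groups. The SE given with edgeR is the absolute log2 fold change over the square root of the test's F value, not a separate estimate. Alternatives were other scalings, no filter, DESeq2 1.42.0, limma-voom (limma 3.58.1), a replicate block, and leaving out each library; fold bounds, overlap counts without each library and the block in both comparisons of Lateral and Medial were added after seeing the data. The fits were tested on simulated data with less spread than these libraries and large changes in well-counted genes. That setting does not cover genes as low or as variable as most members. Named genes were all members, the 3 most abundant of each related list, listed genes past the threshold, and 5 genes of like pattern. One upstream regulator that this rule names is not reported here. Members and lists were chosen with earlier results of these data known. Bounds used a floor of 3 counts; intervals are exact Poisson or conditional binomial at 95%. PCR copies carried no molecular identifiers. Marker genes named with counts beyond this rule were chosen after their values were seen.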

Additional observations from a re-analysis of the deposited data

Results flagged for a closer look

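Among 12 gene and group sets tested for a library far from the others, 8 held one. The rate of about 1 in 20 that chance gives holds for measured values without ties, not for genes at 0 in most libraries, and 5 of the 8 are 1 library, Lateral. Among the 6 dopamine libraries, Lateral stood apart at 7.41 CPM for Fos, 9.75 CPM for Egr1, 3.13 CPM for Arc, 0.331 CPM for Junb and 1.20 CPM for Npas4. Medial stood apart at 13.4 CPM for Nr4a1. Among the 4 datL and datM libraries, datM replicate 1 stood apart for Fos at 0.0367 CPM, which is 1 count, and datM replicate 2 for Nr4a1 at 1.62 CPM.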

How the results depend on the processing

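Members past the threshold stayed at 0 in all 65 alternatives. Of 483 fits of a member 408 had a count in the compared libraries and an adjusted p, 0 of them under 0.05 and the smallest 0.0955; 59 fits had no count there, and 16 others had no adjusted p in DESeq2. Counts over all genes moved. Dopamine against serotonin gave 0 genes, against 125 in DESeq2, 14 in limma-voom, 2 with 5 groups and 0 to 1 without each library. Within lane 8 it gave 3, against 7 without a filter, 787 in DESeq2, 1 in limma-voom and 13 to 2453 without each library, 2453 being without Lateral. For datL against datM it was 0, against 1588 in DESeq2, 243 in limma-voom and 0 to 6 without each library. Lateral and Medial against datL and datM gave 0, against 35 in DESeq2. The 5 groups gave 1, against 2 without a filter, 621 in DESeq2 and 0 to 15 without each library. The replicate block gave 0 genes for dopamine against serotonin, 0 for datL against datM, 2 for the 5 groups and, added after seeing the data, 11 within lane 8 and 0 for Lateral and Medial against datL and datM, where it turned Jun to -0.73. Over 15177 genes, the differences between replicates 1 and 2 correlated little between groups. The r was 0.0986 for datL with datM, 0.0150 for datL with serotonin and -0.00278 for datM with serotonin. Whether single genes such as Jun share a replicate effect was not tested. Fitted log2 fold changes kept their sign in 240 alternatives and turned in 17. For dopamine against serotonin, Fos turned to -1.29 and Egr1 to -0.83 in limma-voom, to -4.14 and -3.07 with 5 groups, and Fos to -0.33 without serotonin replicate 2. Within lane 8, Fos turned to -7.48 and Egr1 to -2.28 without Lateral, Arc to 0.63 without Medial, and Nr4a1 to -0.51 in limma-voom, -0.34 without serotonin replicate 1 and -1.73 without Medial. Jun turned to -1.65 and -0.56 for datL against datM without datL replicate 1 and datM replicate 2. For Lateral and Medial against datL and datM, Jun turned to -0.27, -0.28 and -0.54 without datL replicate 2, datM replicate 2 and Medial. Without each library in turn, the values ran from -0.33 to 8.03 for Fos between dopamine and serotonin, and within lane 8 from -7.48 to 9.74 for Fos, -2.28 to 10.16 for Egr1, -8.81 to 0.63 for Arc and -1.73 to 0.92 for Nr4a1. For Jun they ran from -1.65 to 2.02 between datL and datM, and from -0.54 to 0.57 between Lateral and Medial and the datL and datM libraries. The cause was not tested.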

Other observations

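Some early response genes outside the 10, chosen after their values were seen, split the October libraries by replicate, as Jun did. Bdnf, a neurotrophin induced by activity, stood at 54.2 CPM in Lateral, 87.2 in Medial, 0.220 and 91.3 in datL, 0.0734 and 81.5 in datM, and 4.31 and 4.87 in serotonin. Klf6 stood at 206 CPM in Lateral, 141 in Medial, 20.8 and 231 in datL, 55.6 and 265 in datM, and 59.6 and 82.0 in serotonin. Both were low where Jun was high among datL and datM. Fosl1, a Fos relative, had 58 counts in Lateral, 3 in serotonin replicate 2 and 0 in the other libraries.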
